A study of Mus musculus with 24 samples.

Results

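The imprinted genes Peg3, Usp29, Zim1, Peg10, Sgce, Mest, Nnat and Gnas were followed in brain and liver of cloned and control newborn mice. They were taken as 8 named genes from 5 imprinted chromosome domains, and every array probe carrying one of these names, in the array's own annotation or as the current symbol of its accession, was included. This gave 19 of the 41174 probes on the array, and all 8 genes had at least 1 probe: 8 probes for Gnas, 3 for Peg3, 2 each for Usp29 and Sgce, and 1 each for Zim1, Peg10, Mest and Nnat. Expression was measured on 24 single-colour arrays, 4 in each of 3 groups in each of 2 tissues. G20 denotes the 20th round of recloning from cumulus cells, CC animals were somatic clones made from cumulus cells, the cells that surround the oocyte, and NC animals were controls conceived by sperm injection. All were neonatal females of the (C57BL/6 x DBA2) x 129/Sv background. The source names of the G20 samples all carry the same animal number, so a p-value here reflects only how far these samples scatter, and part of that scatter may be technical.

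At an imprinted gene the parental copies carry different marks, set in the germ line mainly as DNA methylation, and only 1 copy is read. Peg3, a zinc finger protein expressed strongly in brain, and Usp29, a ubiquitin peptidase gene read in the opposite direction from the same promoter region, are read from the paternal copy, whereas the neighbouring zinc finger gene Zim1 is read from the maternal copy. Peg10, a retrotransposon-derived gene needed for the placenta, and Sgce, which encodes epsilon-sarcoglycan, share another paternally read promoter region. Mest, a hydrolase gene active in mesoderm, and Nnat, which encodes the small membrane protein neuronatin and lies inside an intron of Blcap, are also paternally expressed. The Gnas locus makes the stimulatory G protein alpha subunit together with several other transcripts that start at upstream promoters, some read from the maternal and some from the paternal copy, and that join shared downstream exons.

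Promoter windows of 300 bases, from 250 before to 50 after an annotated start, were read from RefSeq (GRCm38.p6) for 6 of the genes in 11 windows. They are shown because the methylation that marks these genes falls on CpG sites, which are in capitals. The 5 windows below cover the shared Peg3 and Usp29 region (chr7:6730370-6730669, minus strand), the Nnat start (chr2:157559828-157560127, plus strand), a Mest start (chr6:30737800-30738099, plus strand), and the most upstream and the most downstream Gnas windows (chr2:174284070-174284369 and chr2:174329756-174330055, plus strand).
Peg3: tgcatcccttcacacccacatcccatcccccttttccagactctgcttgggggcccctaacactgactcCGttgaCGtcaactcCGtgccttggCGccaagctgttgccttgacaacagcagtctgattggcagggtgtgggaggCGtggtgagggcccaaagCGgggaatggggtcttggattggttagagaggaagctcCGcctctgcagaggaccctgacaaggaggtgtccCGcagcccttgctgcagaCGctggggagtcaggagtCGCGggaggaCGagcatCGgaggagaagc
Nnat: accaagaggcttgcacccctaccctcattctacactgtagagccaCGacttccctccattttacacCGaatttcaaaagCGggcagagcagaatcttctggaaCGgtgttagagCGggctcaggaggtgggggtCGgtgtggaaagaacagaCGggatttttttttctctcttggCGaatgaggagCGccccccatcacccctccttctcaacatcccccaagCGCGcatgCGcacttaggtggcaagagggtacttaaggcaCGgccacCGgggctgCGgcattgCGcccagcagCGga
Mest: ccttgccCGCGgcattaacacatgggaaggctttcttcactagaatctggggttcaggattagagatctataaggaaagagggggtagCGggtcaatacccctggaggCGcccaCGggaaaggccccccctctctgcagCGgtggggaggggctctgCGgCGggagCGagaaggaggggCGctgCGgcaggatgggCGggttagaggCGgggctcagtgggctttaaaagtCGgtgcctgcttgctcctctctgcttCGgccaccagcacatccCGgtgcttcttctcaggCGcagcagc
Gnas upstream: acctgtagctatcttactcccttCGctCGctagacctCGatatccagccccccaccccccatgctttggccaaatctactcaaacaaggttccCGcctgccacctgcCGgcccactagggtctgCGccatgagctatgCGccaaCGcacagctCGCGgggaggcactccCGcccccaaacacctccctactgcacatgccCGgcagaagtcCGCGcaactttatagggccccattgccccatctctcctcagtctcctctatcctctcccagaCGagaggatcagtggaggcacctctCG
Gnas downstream: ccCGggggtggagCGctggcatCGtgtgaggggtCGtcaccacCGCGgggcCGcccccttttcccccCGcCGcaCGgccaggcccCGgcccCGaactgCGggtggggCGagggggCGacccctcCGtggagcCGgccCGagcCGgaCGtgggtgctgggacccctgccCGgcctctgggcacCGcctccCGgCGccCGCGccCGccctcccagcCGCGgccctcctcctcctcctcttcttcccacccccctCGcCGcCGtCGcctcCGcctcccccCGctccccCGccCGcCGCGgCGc
The Peg3 window overlaps that of Usp29 by 263 bases on the opposite strand. These windows held 13 CpG at Peg3, 17 at Nnat, 17 at Mest, 16 at the upstream Gnas start and 40 at the downstream one, and the 11 windows ranged from 8 to 40, against a median of 7 over 32851 windows of all genes. The hexamer TGCCGC, searched on both strands, was found in 4 of the 11 windows, of which 2 are Mest windows that overlap almost wholly, and in 11.6% of all windows, and the motif GCCATNTT in 0 of the 11 and in 6.05% of all. These are counts of letters in the windows and no measurement of methylation was made.

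Levels below are log2 processed signal minus the 75th percentile of the same array, so that 0 is that percentile. They compare groups for 1 probe and not 1 probe with another. The share of probes well above background was 68.1% to 70.6% on G20, 62.4% to 63.9% on CC and 68.1% to 70.3% on NC arrays of brain, and 60.5% to 62.9%, 53.6% to 56.4% and 57.7% to 59.6% in liver. The number of arrays limits the precision. Each group lay on a slide of its own, which leaves slide and group impossible to separate, and the CC arrays were scanned 221 days after the first session, against 49 days for G20 and NC brain and 0 days for G20 and NC liver. For CC against either other group, session and group cannot be told apart. Of the 19 probes, 15 passed the filter on dim signal in brain and 11 in liver. The 4 that passed in neither were 3 Gnas probes (A_51_P326769, A_52_P219393 and A_52_P431319) and 1 Peg3 probe (A_52_P1131620). In liver the only Zim1 and Peg10 probes, Usp29 A_51_P257982 and Gnas A_52_P190394 did not pass either. In brain the neuron markers summed to 7.01 to 7.12 on G20, 6.99 to 7.17 on CC and 7.07 to 7.15 on NC arrays, with all 6 marker genes well above background. Astrocyte and radial glia markers summed to 6.14 to 6.5 on G20, 6.66 to 6.91 on CC and 6.10 to 6.17 on NC arrays of brain. Such sums hide probes that moved in opposite directions. In CC against NC brains 4 of 14 neuron probes were called higher and 9 lower. Of 11 astrocyte and radial glia probes, 4 were called higher and 4 lower. Over all probes 35.8% were called higher and 32.5% lower. The part of these cells in the CC differences was not tested. In liver the hepatocyte markers summed to 10.58 to 10.83 on G20, 9.24 to 10.07 on CC and 10.52 to 10.75 on NC arrays, where the Alb spots of 3 CC arrays had been left out as outliers. Alb and Trf did not count as well above background in the CC livers as a group.

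**Figure D1:**
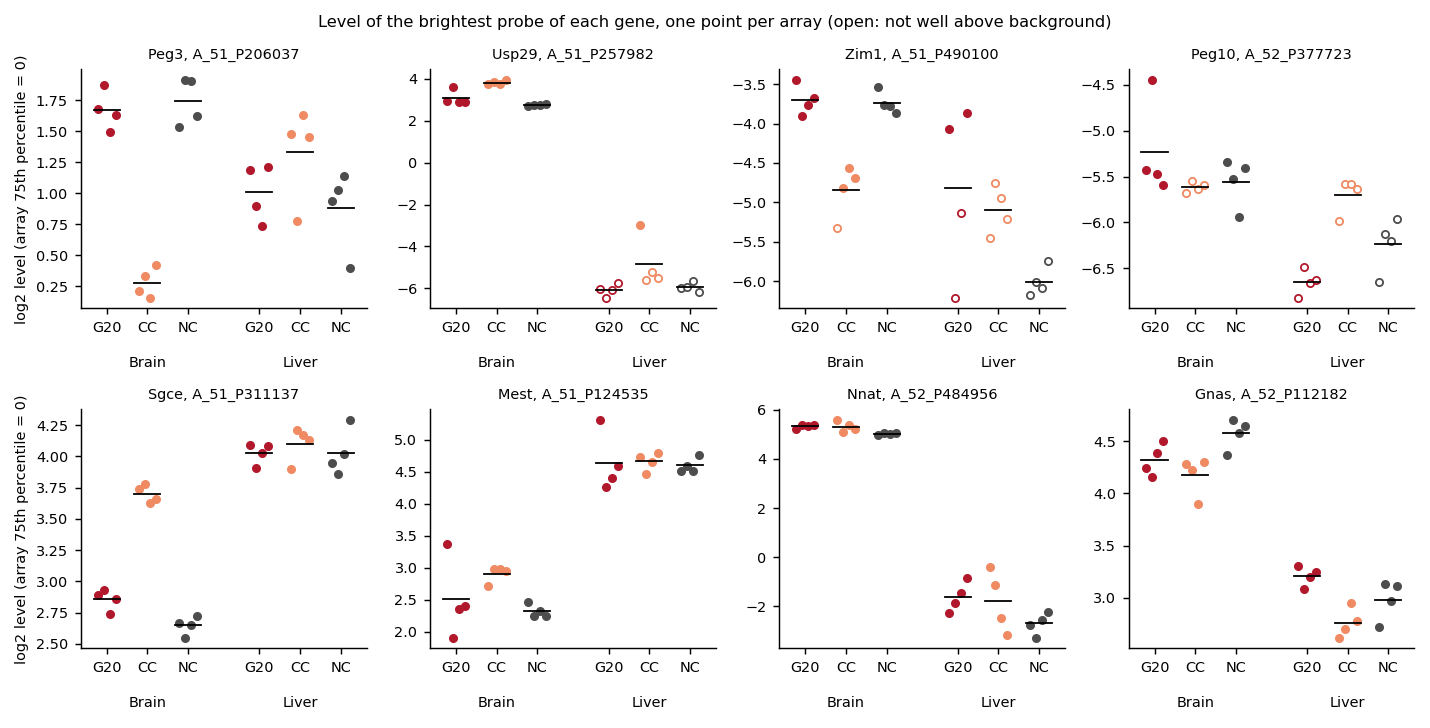
Level of the probe with the highest mean signal for each of the 8 genes on every array, in log2 units relative to the array's 75th percentile, with G20, CC and NC side by side in brain and in liver. Points are arrays, bars are group means, and open points are spots not well above background. Nnat and Usp29 lie far higher in brain than in liver, Mest lies higher in liver, and Peg3 in brain lies lowest on the CC arrays.

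In G20 livers, 2 of the 11 tested probes rose and 0 fell against NC, and both belong to Gnas. Over all 24083 probes tested in this comparison 3.88% rose, 2.62% fell and 6.49% changed in either direction. Only 1 of the 11 probes had groups that did not overlap, against 16.9% of all probes. Gnas A_52_P94874 (mm8 chr2:173971466-173971525) had levels of -2.16, -2.71, -3.03 and -3.01 in G20 livers, against -3.48, -4.19, -3.90 and -4.12 in NC livers. All 4 G20 arrays lay above all 4 NC arrays. The difference was 1.20 ± 0.23 (SE, log2, n = 4 each), a fold of 2.29, with a limma adjusted p of 0.0122. It turned to -0.78 (adjusted p = 0.0806) when the background was corrected by normexp instead of by the scanner software, a setting that also moved the median of all probes in this comparison to -0.21, against 0.03.

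Gnas A_51_P335321 (chr2:173975755-173975814) had levels of -1.38, -1.27, -1.68 and -1.54 in G20 livers, against -2.24, -2.24, -1.65 and -2.28 in NC livers. The groups overlapped through NC replicate 3, which lay level with the lowest G20 array. This probe rose by 0.63 ± 0.15, with a limma adjusted p of 0.0257. The call was lost in 8 of 16 alternatives, including 6 that left out 1 array, with the adjusted p between 0.0533 and 0.0774 in those 6, and the direction turned under normexp, to -0.29. Without NC replicate 3 the difference was 0.79 with an adjusted p of 0.00432.

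The probes at the far end of the locus did not pass in liver, except under normexp, and no test compared the probes with each other. Gnas A_52_P112188 (chr2:173984615-173984776) and A_52_P112182 (chr2:173984834-173986163) lie 57.3 and 57.5 kb from the most upstream probe of the locus, whereas A_52_P94874 and A_51_P335321 lie 44.1 and 48.4 kb from it. A_52_P112182 read 3.30, 3.08, 3.20 and 3.25 in G20 livers, against 2.72, 3.13, 2.97 and 3.11 in NC livers. Its difference was 0.23 ± 0.11, with a limma adjusted p of 0.239, and the groups overlapped. Under normexp it was 0.87 (adjusted p = 0.0295). A_52_P112188 differed by 0.15 ± 0.11 (adjusted p = 0.436), with a 95% interval from -0.09 to 0.38, and by 0.59 (adjusted p = 0.0244) under normexp. The files name all 4 probes Gnas and do not say which transcript of the locus each of them reads, and whether a probe lies in an exon or an intron on mm8 was not analysed here.

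In G20 brains none of the tested probes passed: limma called 0 of 15 against NC, where 1.38% of all 27810 probes were called, and 8 of the 15 had an unadjusted p under 0.05, against 18.3% of all probes. The Gnas probes fell on both sides of zero. The downstream probes A_52_P112182 and A_52_P112188 differed by -0.25 ± 0.11 and -0.27 ± 0.12 (adjusted p = 0.259 and 0.244), whereas A_51_P335321 and A_52_P94874 differed by 0.34 ± 0.13 and 0.40 ± 0.22 (adjusted p = 0.194 and 0.348). For A_52_P112182 the values were 4.24, 4.16, 4.39 and 4.50 in G20 brains, against 4.37, 4.70, 4.58 and 4.64 in NC brains, and these overlap. Gnas A_52_P190394, 15.6 kb from the most upstream probe, differed by 0.61 ± 0.49 (adjusted p = 0.526). The test of whether the G20 difference was unequal between brain and liver called 0 of 11 probes, against 3.31% of all probes tested, and 4 of the 11 had an unadjusted p under 0.05, against 18.5% of all. Its smallest adjusted p was 0.0935, for A_52_P112182 at -0.48 ± 0.16.

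**Figure D2:**
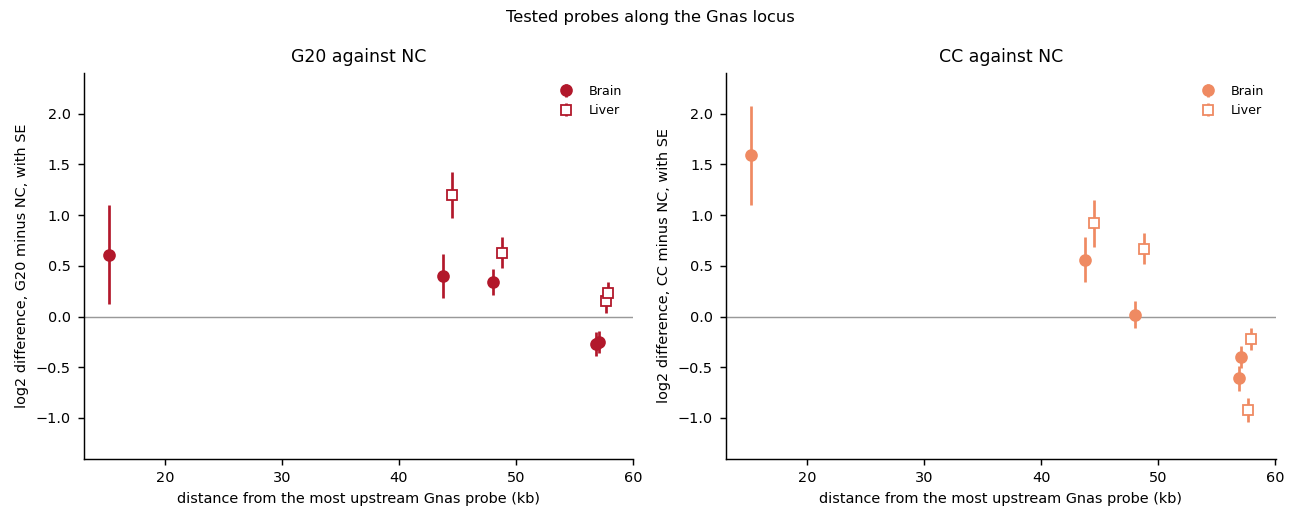
Log2 difference of each tested Gnas probe with its SE, for G20 minus NC (left) and CC minus NC (right), against the probe's distance in kb from the most upstream Gnas probe. Filled circles are brain and open squares are liver. In liver the probes at 44.1 and 48.4 kb lie above 0 in both panels, though normexp turned 3 of these 4 values below 0, and the probes at 57.3 and 57.5 kb lie lower, though in G20 livers normexp raised both.

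Genes that act with the Gnas product were counted as a list of G protein signalling genes. In G20 livers 3 of 35 tested probes rose and 0 fell against NC, where 3.88% of all probes rose and 2.62% fell. Among them were 1 of 6 probes of Crem, a transcription factor that answers cyclic AMP, by 0.84 ± 0.22 (limma adjusted p = 0.0459), and Adcy9, an adenylyl cyclase, by 0.40 ± 0.08 (adjusted p = 0.0159). The list's median difference was 0.04, against 0.03 for all probes. In G20 brains limma called 0 of 37 probes, where 1.38% of all were called.

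The Nnat probe (chr2:157253683-157253742) read 5.21, 5.37, 5.33 and 5.40 in G20 brains, against 4.98, 5.04, 5.0 and 5.06 in NC brains. Every G20 array lay above every NC array, and the difference was 0.31 ± 0.10 (fold 1.24) with a limma adjusted p of 0.136, so the probe did not pass. Such a gap between the groups was found for 3 of the 15 probes, against 11.6% of all probes. In liver Nnat read -2.28, -1.87, -1.44 and -0.86 on G20 arrays, against -2.76, -3.27, -2.54 and -2.21 on NC arrays. The difference of 1.08 ± 0.53 had an adjusted p of 0.243 and an interval from -0.06 to 2.23.

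Blcap, the gene in whose intron Nnat lies, was among the neighbouring genes counted for each domain, and its probes moved in opposite directions in G20 brains. Blcap is read on the minus strand, from higher to lower coordinates. On its upstream side of Nnat, probe A_52_P386754 (chr2:157255796-157255855) read -1.57, -1.66, -1.88 and -1.83 in G20 brains, against -2.62, -3.08, -2.86 and -2.91 in NC brains. The G20 arrays were all higher, by 1.13 ± 0.15, with a limma adjusted p of 0.00249. On its downstream side, A_51_P255142 (chr2:157247840-157247899) read 3.83, 3.97, 3.70 and 3.71 in G20 brains, against 4.99, 4.95, 5.02 and 5.06 in NC brains. This probe fell by 1.20 ± 0.20 on the log2 scale (adjusted p = 0.013). The second downstream probe, A_52_P2520 (chr2:157249223-157249282), read -2.46, -2.44, -2.56 and -2.50 in G20 brains, against -1.06, -1.23, -1.04 and -0.91 in NC brains. It fell by 1.43 ± 0.23 (adjusted p = 0.0102), and neither downstream probe had overlapping groups.

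In liver the downstream Blcap probes did not pass the test: A_51_P255142 differed by -0.04 ± 0.13 (limma adjusted p = 0.896) and A_52_P2520 by -0.03 ± 0.39 (adjusted p = 0.981), though normexp gave -1.4 for A_52_P2520 (adjusted p = 0.0243). The G20 difference of A_51_P255142 was unequal between the tissues, at -1.16 ± 0.25 for brain minus liver (adjusted p = 0.0127). That of A_52_P2520 was -1.41 ± 0.47 with an adjusted p of 0.107, or 0.0481 with brain and liver of the same number as a block. For G20 that number need not mark an animal, so this block is arbitrary there. The upstream probe rose in G20 livers as well, by 1.18 ± 0.26 (adjusted p = 0.0209), with -4.29, -3.41, -3.66 and -3.67 in G20 livers and -5.39, -4.69, -4.52 and -5.15 in NC livers. Only 1 of those 4 NC spots was well above background, the call was lost in 5 of 16 alternatives, and normexp turned the difference to -1.28. In brain all 3 Blcap calls kept their direction in every alternative run and were lost only under normexp, where no probe of the array was called.

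**Figure D3:**
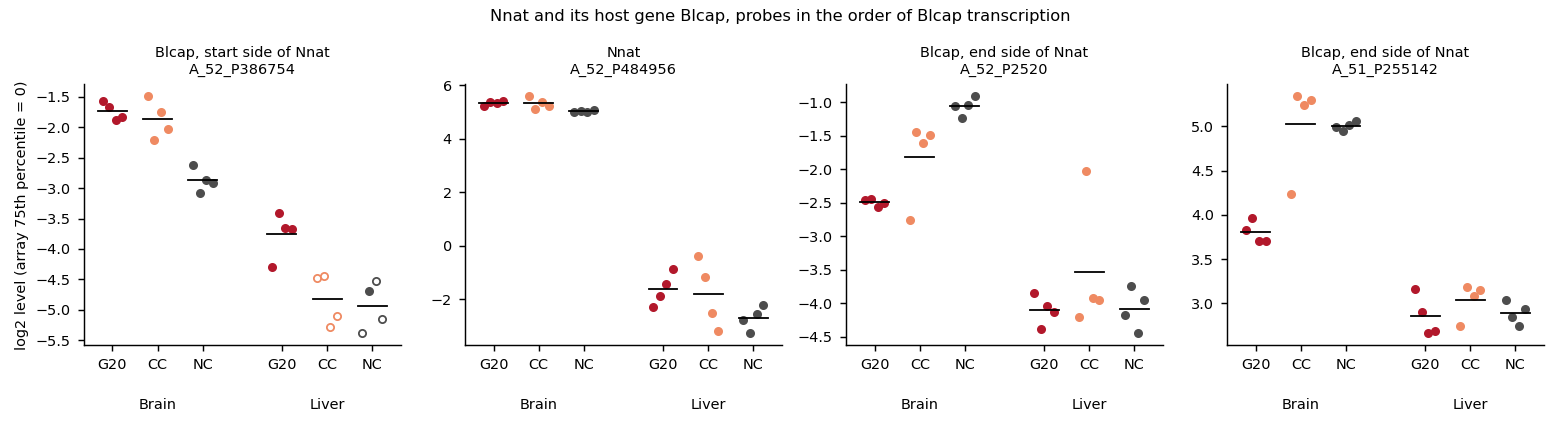
Levels of 3 Blcap probes and the Nnat probe on every array, in log2 units relative to the array's 75th percentile, ordered along the direction of Blcap transcription, with G20, CC and NC side by side in each tissue. Points are arrays, open where not well above background, and bars are group means. In brain G20 lies above NC at the upstream Blcap probe and below NC at both downstream probes, and CC replicate 1 lies apart from the other CC arrays at the downstream probes.

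In CC brains the upstream Blcap probe rose as well, by 1.00 ± 0.15 (limma adjusted p = 8.02e-05), with -1.49, -2.21, -1.75 and -2.03 in CC brains. The downstream probes divided the CC animals. A_51_P255142 read 4.24 in CC replicate 1 and 5.24 to 5.34 in the other CC brains, and A_52_P2520 read -2.75 in replicate 1 and -1.60 to -1.44 in the others. With all 4 arrays the CC minus NC differences were 0.03 ± 0.20 (adjusted p = 0.914) and -0.76 ± 0.23 (adjusted p = 0.011). Without replicate 1 they were 0.29 (adjusted p = 0.00786) and -0.45 (adjusted p = 0.000683). Quantile normalization gave -0.61 for A_51_P255142 with all 4 arrays (adjusted p = 0.0277).

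Neither Peg3 probe passed the test between G20 and NC. Peg3 A_51_P206037 (chr7:6311815-6311874) read 1.68, 1.87, 1.49 and 1.63 in G20 brains, against 1.53, 1.91, 1.90 and 1.62 in NC brains. The groups overlapped, and the difference was -0.07 ± 0.11 with an interval from -0.31 to 0.17. The other Peg3 probe, A_52_P235861 (chr7:6310149-6310208), differed by 0.35 ± 0.14 (limma adjusted p = 0.212). In liver the 2 Peg3 probes differed by 0.13 ± 0.21 and 0.23 ± 0.21 (adjusted p = 0.749 and 0.55).

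Usp29, on the other side of the Peg3 promoter region, was higher on every G20 brain array than on any NC brain array without passing the test. Probe A_51_P257982 (chr7:6571181-6571240) read 2.93, 3.63, 2.91 and 2.92 in G20 brains, against 2.71, 2.77, 2.75 and 2.78 in NC brains. G20 replicate 2 stood well above the other 3 G20 arrays. The difference was 0.34 ± 0.14 (limma adjusted p = 0.225), and 0.17 (adjusted p = 0.311) without G20 replicate 2. The second Usp29 probe, A_52_P438144 (chr7:6334810-6334869), differed by 0.40 ± 0.17 (adjusted p = 0.249), and again its highest G20 value, 0.28, was that of replicate 2. Zim1, the maternally read neighbour, read -3.45, -3.91, -3.77 and -3.68 in G20 brains, against -3.54, -3.77, -3.78 and -3.86 in NC brains. These overlap, with a difference of 0.04 ± 0.15.

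Sgce A_51_P311137 (chr6:4624457-4624516) read 2.89, 2.93, 2.74 and 2.86 in G20 brains, against 2.67, 2.55, 2.65 and 2.72 in NC brains. The G20 arrays lay just above the NC arrays without overlap, by 0.21 ± 0.07, with a limma adjusted p of 0.16. The other Sgce probe, A_52_P27864 (chr6:4641640-4644080), differed by -0.12 ± 0.07 (adjusted p = 0.371), so the probes of this gene did not share a direction. Peg10 was near the detection limit in brain, with -5.43, -4.45, -5.47 and -5.59 in G20 brains, against -5.34, -5.53, -5.94 and -5.41 in NC brains. Its difference of 0.32 ± 0.22 (adjusted p = 0.44) came to 0.06 without G20 replicate 2. In liver the Sgce probes differed by 0.00 ± 0.11 and 0.20 ± 0.11 (adjusted p = 0.992 and 0.32).

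Mest (chr6:30698289-30698348) was more spread out over the G20 samples than over the NC samples. It read 3.38, 1.91, 2.35 and 2.41 in G20 brains, against 2.47, 2.25, 2.32 and 2.24 in NC brains, and 5.31, 4.27, 4.40 and 4.60 in G20 livers, against 4.52, 4.60, 4.52 and 4.77 in NC livers. In both tissues the highest of the 4 G20 values was that of replicate 1, the SD was 0.62 in G20 and 0.11 in NC brains, and 0.46 in G20 and 0.12 in NC livers. Without G20 replicate 1 the SD of G20 was 0.27 in brain and 0.17 in liver, so the spread rests largely on that sample. The mean differences were 0.19 ± 0.23 in brain (limma adjusted p = 0.696) and 0.04 ± 0.19 in liver (adjusted p = 0.925).

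**Figure D4:**
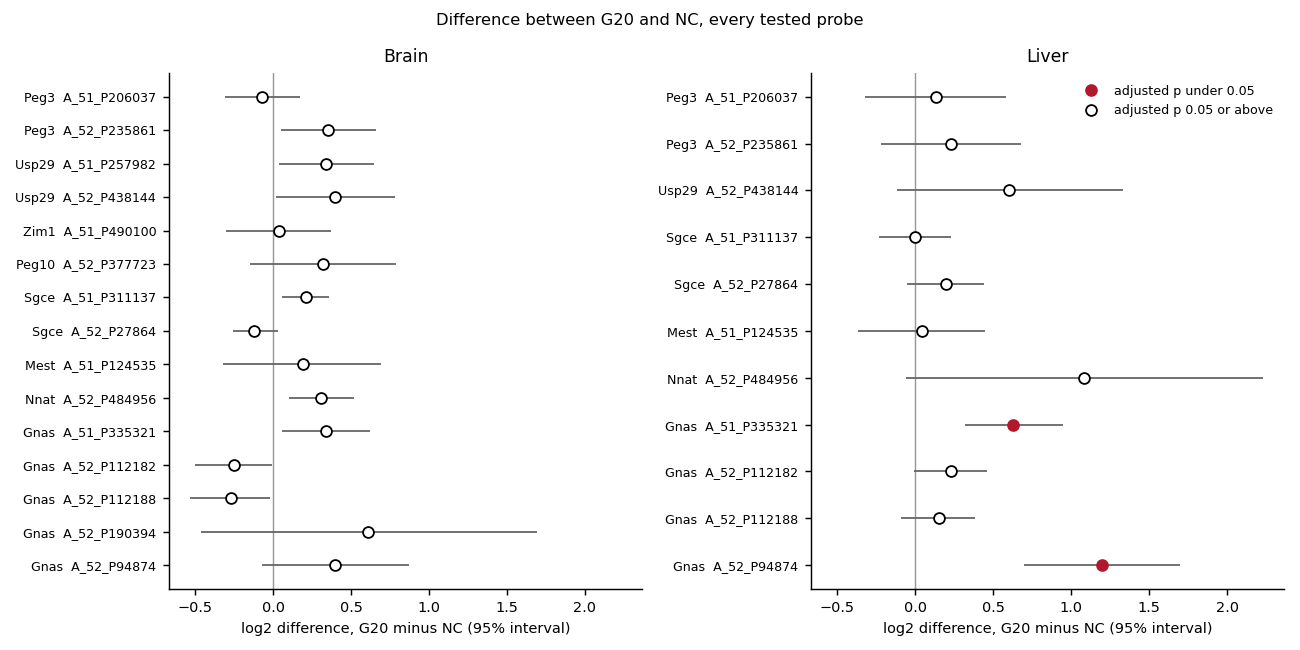
Log2 difference of G20 minus NC with its 95% interval for each tested probe of the 8 genes, in brain (left) and liver (right). Filled points had a limma adjusted p under 0.05. These are Gnas A_52_P94874 and A_51_P335321 in liver, whose direction turned under normexp, and no probe in brain is filled.

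Over the 15 probes tested in brain the median G20 minus NC difference was 0.31, against 0.02 over all probes, and over the 11 tested in liver it was 0.23, against 0.03. Apart from the Nnat domain, at most 1 neighbouring probe per domain and tissue was called in G20 against NC. Of all probes 1.38% were called in brain and 6.49% in liver. Domains with so few probes cannot show whether their share differs from that of all probes. In brain 0 of 3 probes near Peg3, 0 of 20 near Peg10, 1 of 18 near Mest and 0 of 11 near Gnas were called, and in liver 0 of 3, 1 of 17, 0 of 13 and 0 of 11. The gene called near Mest was Cpa1 (0.65 ± 0.14, limma adjusted p = 0.0495, lost in 14 of 17 alternatives). The gene called near Peg10 in liver was Gngt1 (-1.16 ± 0.30, adjusted p = 0.0418, lost in 10 of 17). Genes that maintain imprints were called in 0 of 15 probes in brain and in 1 of 14 in liver, where 1 of 3 probes of the DNA methyltransferase gene Dnmt3a rose by 0.40 ± 0.08 (adjusted p = 0.0123).

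For some other cells the marker sums did not overlap between G20 and NC brains, though few of their probes were called. In G20 against NC brains limma called 1 of 4 hypothalamus and pituitary and 1 of 7 microglia probes as lower. It called 0 of 4 erythroid and 0 of 6 choroid plexus probes, where 1.38% of all probes were called. Markers of hypothalamus and pituitary, of which 3 of 7 genes were well above background in G20 and in NC, summed to 0.15 to 0.49 on G20 arrays and 0.85 to 3.70 on NC arrays, where replicate 2 alone lay above 0.95, and erythroid markers, with 3 of 4 genes above background, summed to 7.15 to 7.67 on G20 arrays and 5.80 to 7.14 on NC arrays. Microglia markers, all 5 above background, summed to 1.22 to 1.40 on G20 and 1.52 to 1.70 on NC arrays. Choroid plexus markers, all 5 above background, summed to 0.36 on G20 replicate 2, the sample with the highest Usp29 and Peg10 values, against 1.82 to 2.37 on the other G20 arrays and 2.15 to 2.45 on NC arrays. In liver, cholangiocyte markers summed to 1.33 to 1.55 on G20 and 1.59 to 2.07 on NC arrays, and stellate cell and fibroblast markers to 5.72 to 5.97 and 5.98 to 6.19. There limma called 1 of 6 cholangiocyte and 0 of 7 stellate cell and fibroblast probes, where 6.49% of all probes were called. The part of such cells in the differences was not tested. In bulk tissue, fewer cells of a type and less RNA per cell cannot be told apart.

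Against NC, the CC arrays differed at most of the probes in brain, as did the array as a whole. Of 15 probes 7 rose and 6 fell, while 68.4% of all probes were called, 35.8% as higher and 32.5% as lower. The members' count is to be read against that share, and 3 were called from the authors' deposited matrix. Peg3 A_51_P206037 read 0.21, 0.33, 0.16 and 0.42 in CC brains, all below the NC brains given above. The difference was -1.46 ± 0.11 (fold 0.364, limma adjusted p = 4.62e-07), against -0.31 (adjusted p = 0.0858) from the deposited matrix. The other Peg3 probe fell by 0.92 ± 0.14 (adjusted p = 9.46e-05). Usp29 A_51_P257982 read 3.76, 3.85, 3.74 and 3.94 in CC brains and rose by 1.07 ± 0.14 (adjusted p = 2.85e-05), against 0.02 (adjusted p = 0.886) from the deposited matrix. The second Usp29 probe rose by 0.59 ± 0.17 (adjusted p = 0.00927). Zim1 read -5.32, -4.82, -4.56 and -4.69 in CC brains and fell by 1.11 ± 0.15 (adjusted p = 4.23e-05), with 3 of the 4 CC spots above background and a difference of 0.67 under normexp.

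The 2 Sgce probes moved apart in CC brains. A_51_P311137 read 3.74, 3.78, 3.63 and 3.66 and rose by 1.06 ± 0.07 (limma adjusted p = 2.37e-07), whereas A_52_P27864 read 0.54, 0.49, 0.56 and 0.58 there, against 1.28, 1.24, 1.26 and 1.30 in NC brains, and fell by 0.72 ± 0.07 (adjusted p = 1.84e-06). The deposited matrix gave -0.14 and -0.29 for these probes. Mest read 2.72, 2.99, 2.98 and 2.95 in CC brains and rose by 0.59 ± 0.23 (adjusted p = 0.0392), a call that 8 of 17 alternatives lost. Nnat read 5.58, 5.09, 5.38 and 5.23 and rose by 0.30 ± 0.10 (adjusted p = 0.0146). The deposited matrix gave -0.30 for Mest and -0.18 for Nnat, and quantile normalization gave -0.31 for Nnat. Peg10 was not well above background on any CC brain array.

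In CC brains the downstream Gnas probes A_52_P112182 and A_52_P112188 were called lower. The dimmer probes A_52_P94874 and A_52_P190394, upstream of them, were called higher. A_52_P112182 fell by 0.40 ± 0.11 (limma adjusted p = 0.00743) and A_52_P112188 by 0.61 ± 0.12 (adjusted p = 0.000555), while A_52_P94874 rose by 0.56 ± 0.22 (adjusted p = 0.0361, though 7 of 16 alternatives did not call it) and A_52_P190394 by 1.59 ± 0.49 (adjusted p = 0.0126). From the deposited matrix A_52_P94874 differed by -0.06. A_51_P335321, also upstream of the downstream probes, differed by 0.02 ± 0.13. For A_52_P190394 the groups overlapped, and 3 of the 4 CC spots were well above background. Over all probes the median CC minus NC difference in brain was 0.35 without the filter on dim probes, against 0.03 with it. The part of signal strength in the rise of the dim Gnas probes was not tested.

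**Figure D5:**
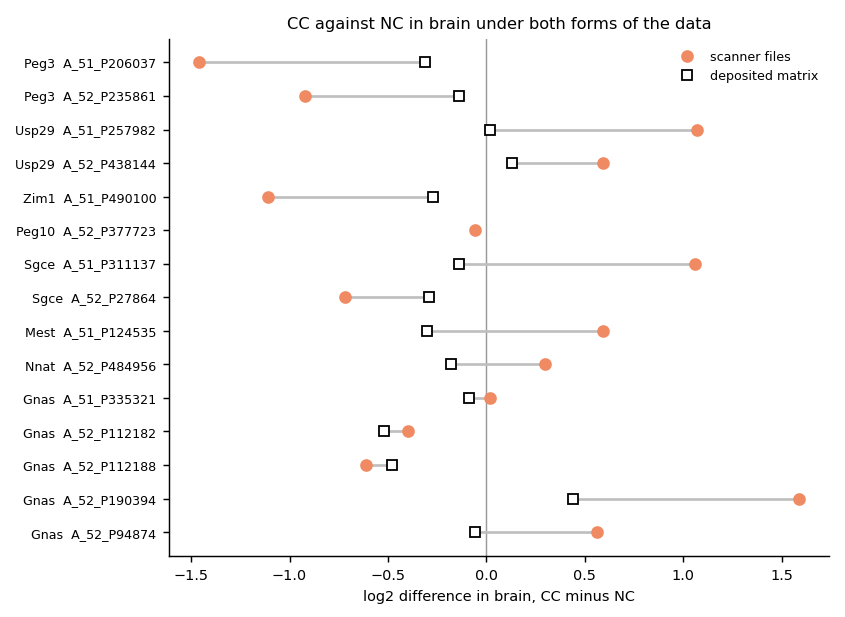
Log2 difference of CC minus NC in brain for each tested probe, from the scanner files (filled circles) and from the authors' deposited matrix (open squares, log2 and centred on each array's 75th percentile). Differences from the matrix lie closer to 0 for most probes, and those of Sgce A_51_P311137, Mest, Nnat, Gnas A_52_P94874 and Gnas A_51_P335321 change sign. Peg10 has no square.

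In CC livers 2 of 11 probes rose and 1 fell against NC, where 39.7% of all probes were called, 19.6% as higher and 20.1% as lower. Gnas A_52_P94874 read -2.65, -2.85, -3.06 and -3.46 in CC livers and rose by 0.92 ± 0.23 (limma adjusted p = 0.00788), or -0.16 under normexp, and A_51_P335321 read -1.41, -1.50, -1.28 and -1.53 and rose by 0.67 ± 0.15 (adjusted p = 0.00355). Neither overlapped the NC livers, though for A_52_P94874 the lowest CC value, -3.46, lay just above the highest NC value, -3.48. The share of all probes without overlap is not given for this comparison. A_52_P94874 and A_51_P335321 are the same 2 probes that rose in G20 livers, and both comparisons share the NC arrays. Gnas A_52_P112188 read 0.69, 0.64 and 0.94 on 3 CC arrays and fell by 0.92 ± 0.12 (adjusted p = 0.000142). The spot of CC replicate 4 had been marked as an outlier and left out, and with it kept the difference was 1.04 (adjusted p = 0.586). The other genes did not pass: Nnat differed by 0.89 ± 0.53 (adjusted p = 0.199), and the Peg3 probes by 0.46 ± 0.21 and 0.51 ± 0.21 (adjusted p = 0.0989 and 0.0711).

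Liver CC replicate 1 stood apart in its neuron markers, of which 3 of 6 genes counted as well above background in the CC livers as a group. They summed to 1.23, against -0.34 to -0.03 on the other CC livers and -1.02 to -0.88 on NC livers. On this array Usp29 A_51_P257982 read -2.98 and was well above background, while the other 3 CC livers read -5.60 to -5.21 and were not. Nnat read -0.39 on it and -1.15, -2.49 and -3.17 on the others, so that the CC minus NC difference of Nnat was 0.42 (limma adjusted p = 0.493) without it and 1.35 (adjusted p = 0.045) without replicate 4, the lowest. Skeletal muscle markers, of which 1 of 4 genes counted as well above background in the CC livers as a group, summed to 5.97 and 3.61 on CC livers 1 and 2, against -1.90 and -1.70 on CC livers 3 and 4, and hepatocyte markers to 9.24 and 9.37, against 10.07 and 9.95. Of 5 hepatocyte genes 3 counted as well above background there, without Alb and Trf, so these sums may not cover the same genes. Astrocyte and oligodendrocyte markers of CC liver 1, at 3.39 and -0.57, did not stand apart as its neuron and muscle markers did. In the CC livers as a group, 2 of 5 astrocyte and 1 of 4 oligodendrocyte genes counted as well above background. These 2 sums therefore say little about such cells. The part of other tissue in these values was not tested.

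Between G20 and CC, which differ also in scan session, 6 of 15 brain probes were higher in G20 and 2 lower, where 66.7% of all probes were called, 32.8% as higher and 33.9% as lower. The largest were Peg3 A_51_P206037 at 1.39 ± 0.11 (limma adjusted p = 8.41e-07), Peg3 A_52_P235861 at 1.27 ± 0.14, Zim1 at 1.14 ± 0.15 (-0.18 under normexp) and Sgce A_51_P311137 at -0.85 ± 0.07 (0.31 from the deposited matrix). Nnat differed by 0.01 ± 0.10, with an interval from -0.20 to 0.22. Over 17 alternative runs its difference ranged from -0.16 to 0.65, 2 of them called it and 5 changed its sign without a call. In liver 2 of 11 probes were higher in G20, where 43.7% of all were called, 23.6% as higher and 20.1% as lower. These were the downstream Gnas probes A_52_P112188 at 1.07 ± 0.12 and A_52_P112182 at 0.44 ± 0.11 (adjusted p = 4.06e-05 and 0.00623). The value of A_52_P112188 rests on 3 CC arrays and was -0.89 with the outlier spot kept and -1.47 from the deposited matrix.

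Brain and liver differed at most probes in each group: 11 of 15 were higher and 2 lower in brain in G20, 8 and 5 in CC, and 11 and 2 in NC. Over all probes 87.9% were called in G20 (44.7% higher, 43.2% lower in brain), 82.8% in CC (40.1% and 42.7%) and 87.6% in NC (44.9% and 42.7%). The tissues were scanned in different sessions for G20 and NC and in 1 session for CC, so for G20 and NC tissue and session cannot be told apart. Nnat had the widest gap among the probes above background in both tissues, at 6.94 ± 0.40 in G20, 7.12 ± 0.40 in CC and 7.71 ± 0.40 in NC (limma adjusted p = 3.15e-13, 2.52e-13 and 4.7e-14). Its means were 5.33, 5.32 and 5.02 in G20, CC and NC brains and -1.61, -1.80 and -2.70 in the livers, and the order was G20, CC, NC in both tissues. In brain, quantile normalization and the deposited matrix turned the order of CC and NC. G20 and CC lay within their spread in both tissues, and CC and NC did in liver.

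Usp29 A_51_P257982 was not above background in any G20 or NC liver, so its level in brain was at least 518-fold higher than in liver in G20 and at least 383-fold higher in NC. For such probes the bound sets the brain mean against the dimmest level measurable on the liver arrays. Under normexp the brain minus liver differences were 5.76 in G20 and 3.77 in NC, far smaller. In CC only 1 of 4 liver spots was well above background, so no exact difference is given. The second Usp29 probe was above background on all liver arrays and differed by 1.92 ± 0.28, 2.68 ± 0.28 and 2.12 ± 0.28 in G20, CC and NC, so the probes of this gene gave gaps of very different size. Gnas A_52_P112182 was higher in brain by 1.11 ± 0.11 in G20, 1.41 ± 0.11 in CC and 1.59 ± 0.11 in NC.

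Mest and Sgce were the genes with a higher level in liver. Mest differed by -2.13 ± 0.22 in G20, -1.76 ± 0.22 in CC and -2.28 ± 0.22 in NC (limma adjusted p = 8.74e-09, 2.28e-07 and 2.89e-09). Sgce A_51_P311137 differed by -1.17 ± 0.09, -0.40 ± 0.09 and -1.38 ± 0.09, whereas A_52_P27864 gave 0.23 ± 0.09, -0.39 ± 0.09 and 0.54 ± 0.09, so its probes disagreed in direction in G20 and NC, where median scaling turned the 0.23 to -0.14. Peg3 A_51_P206037 was higher in brain in G20 and NC (0.66 ± 0.17 and 0.86 ± 0.17) and lower in CC (-1.05 ± 0.17), though the deposited matrix gave 1.27 for CC.

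The genes whose values followed each member most closely among the 12 arrays of a tissue, after the group means were removed, are given as a description. In brain they were Vps53 for Usp29 (Pearson r = 0.99), Ppa2 for Nnat (0.97), Cdpf1 for Sgce (0.97) and Pcsk5 for Gnas (0.93), among 24163 probes compared. For Mest in brain they were 9130206I24Rik (0.95) and then Cdh5, a cadherin of blood vessel endothelium (0.95). In liver they were Tab2 for Peg3 (0.97), St13 for Sgce (0.97), Cebpb for Mest (0.96), Tfdp2 for Nnat (0.95), Syne1 for Gnas (0.94) and Gnb4 for Usp29 (0.94), among 20472 probes. These arrays share slides and sessions within groups, and the highest of so many correlations over 12 arrays is large in itself. Among the members themselves Peg3 and Usp29 had r = 0.62 in brain and 0.70 in liver. Usp29 and Mest, which lie in different domains, had values of like size, -0.59 in brain and 0.67 in liver.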

How the data were processed

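RNA of brain and liver was hybridised to Agilent single-colour arrays, with 0.5 µg of RNA labelled per the labels' protocols. Per the file headers, the deposited scanner files hold processed signal intensity, already background-subtracted by Agilent Feature Extraction (9.5.3.1, per the submitters' processing notes), with quality flags of 0 or 1 per spot. The authors deposited a matrix of linear intensities as well, with its scaling unstated, and it served as an alternative. Probe positions are mm8 as the files give them, and promoter windows are GRCm38.p6.

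Log2 intensity minus each array's 75th percentile was computed, spots of a probe were averaged, and outlier spots and controls were left out. Groups were compared in limma 3.58.1 (R 4.3.3, with the data.table package at 1.17.8) on the 12 arrays of a tissue, or on all 24 arrays for brain against liver, with Benjamini-Hochberg adjustment over all probes tested. A probe entered a tissue's test if some group had it well above background in each of its 4 arrays. The script was tested on simulated data. Probes of members were described in full if called within a tissue or the brightest of their gene. List genes were named if called, up to 4 per list and comparison by size, and up to 3 genes were kept as most like each member by correlation of deviations from group means. The members and lists were chosen with earlier results of these data known. Samples with the same number in 2 groups had correlations of deviations from -0.18 to 0.13, so the numbers did not pair those groups. Brain and liver of the same number, which share an animal per the labels for CC and NC, had correlations from 0.04 to 0.30. The fit with this number as a block was an alternative for the tests that use both tissues. For G20 the block rests on the replicate number alone, as the G20 source names all carry the same animal number. Some genes that met these rules are not reported here.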

Additional observations from a re-analysis of the deposited data

Results flagged for a closer look

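Among 138 groups of 4 arrays checked, 9 had an array far from the other 3, and chance flags about 1 in 20 groups. In brain, Mest read 2.72 in CC replicate 1 and 2.95 to 2.99 in the others, and Usp29 A_51_P257982 read 3.63 in G20 replicate 2 and 2.91 to 2.93 in the others. Peg10 read -4.45 in G20 replicate 2 and -5.59 to -5.43 in the others. Gnas A_52_P112188 read 2.37 in NC brain replicate 1 and 2.66 to 2.72 in the others, and Gnas A_51_P335321 read -1.65 in NC liver replicate 3 and -2.28 to -2.24 in the others. Blcap A_51_P255142 read 4.24 and Blcap A_52_P2520 read -2.75 in CC brain replicate 1, against 5.24 to 5.34 and -1.60 to -1.44 in the other CC brains. Blcap A_52_P2520 read -2.03 in CC liver replicate 2 and -4.21 to -3.92 in the others, and H13 A_52_P655663 read -1.36 in G20 brain replicate 1 and -0.35 to -0.25 in the others.

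The G20 minus NC difference was unequal between brain and liver for 4 probes by limma's interaction test. The brain minus liver values were -1.16 for Blcap A_51_P255142 (adjusted p = 0.0127), -1.42 for H13 A_51_P336998 (adjusted p = 0.0222), -0.58 for Commd1 A_52_P23616 (adjusted p = 0.033, lost in 11 of 23 alternatives) and -0.45 for Commd1 A_52_P353198 (adjusted p = 0.0101).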

How the results depend on the processing

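The number of member probes called in G20 against NC brains was 0 under every alternative run. In brain CC against NC it was 13, and 7 under normexp, 3 from the deposited matrix, 7 with 1 probe per gene and 11 to 12 with 1 array left out. In brain G20 against CC it was 8, and 4, 4, 4 and 6 to 10. In liver G20 against NC it was 2, and 0 with 1 probe per gene, 1 with the replicate block, 1 with the compared arrays alone and 1 to 2 with 1 array left out. In liver CC against NC it was 3, and 0 under normexp, 5 without the filter, 0 with 1 probe per gene and 3 to 5 with 1 array left out. In liver G20 against CC it was 2, and 1 with outlier spots kept, 0 from the matrix, 6 without the filter, 1 with 1 probe per gene and 2 to 3 with 1 array left out. Between brain and liver it was 13 in each group, and 8, 8 and 12 to 13 in G20, 8, 6 and 12 to 13 in CC (normexp, 1 probe per gene, 1 array left out), and 8 with 1 probe per gene and 13 to 14 in NC. Unequal G20 differences numbered 0, and 1 after quantile normalization and 2 from the matrix. With 1 probe per gene at most 8 member probes could be tested, against 15 in brain and 11 in liver, so those counts have a smaller total. The highest counts in any alternative setting were 16 in brain CC against NC, and 15, 15 and 16 between brain and liver in G20, CC and NC.

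Directions turned as follows, and the cause was not tested. Brain CC against NC: the matrix gave -0.30 for Mest, -0.14 for Sgce A_51_P311137, -0.18 for Nnat and -0.06 for Gnas A_52_P94874, quantile normalization gave -0.31 for Nnat and -0.61 for Blcap A_51_P255142, and normexp gave 0.67 for Zim1. Brain G20 against CC: the matrix gave 0.28 for Usp29 A_51_P257982 and 0.31 for Sgce A_51_P311137, and normexp gave -0.18 for Zim1. Liver G20 against NC under normexp: Gnas A_51_P335321 was -0.29, Gnas A_52_P94874 -0.78 and Blcap A_52_P386754 -1.28. Liver CC against NC: Gnas A_52_P112188 was 1.04 with outlier spots kept and 1.75 from the matrix, and Gnas A_52_P94874 was -0.16 under normexp. Liver G20 against CC: Gnas A_52_P112188 was -0.89 with outlier spots kept and -1.47 from the matrix. Brain minus liver in G20: Sgce A_52_P27864 was -0.14 with median scaling. In CC: the matrix gave 1.27 and 0.70 for Peg3 A_51_P206037 and Peg3 A_52_P235861, 0.83 for Sgce A_52_P27864 and -0.70 for Gnas A_52_P112188 (-0.72 with outlier spots kept), quantile normalization gave 0.06 for Sgce A_51_P311137, and normexp gave -0.08 for Gnas A_52_P190394 and -0.08 for Gnas A_52_P94874. In NC under normexp: Zim1 was -1.58, Gnas A_52_P190394 -2.16, Peg10 -2.29 and Gnas A_52_P94874 -1.14. The brain minus liver G20 difference of Blcap A_52_P386754 was 2.34 under normexp.

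With the replicate number as a block, Gnas A_51_P335321 in G20 livers had an adjusted p of 0.056, and same-numbered samples of different groups share only a number. With the block the calls of Mcts2, Cpa1 and Commd1 A_52_P23616 in G20 brains were lost and that of Gnas A_52_P190394 in brain G20 against CC was gained (-0.98, adjusted p = 0.0435). With brain and liver of the same number as a block the brain against liver counts stayed at 13 in each group. Over all probes, calls in liver G20 against NC numbered 1564, of which 59.7% were higher, and between 1005 with the block and 9296 under normexp, where 12.9% were higher. The higher share was 36.5% with median scaling, 82.9% from the matrix and 42.9% without the filter. In brain CC against NC it was 52.4%, and 2.62% from the matrix. In liver CC against NC it was 49.5%, and 14.3% from the matrix and 9.95% under normexp. In brain G20 against NC 385 probes were called, and 0 under normexp. Peg10, Zim1 and the upstream Gnas probes lay near background, which limits their values.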

Other observations

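The H13 and Commd1 genes resemble Blcap in that an imprinted gene lies inside them, and these genes were chosen after their values had been seen. In G20 brains against NC brains, the H13 probe A_52_P341161 before Mcts2 rose by 1.08 ± 0.20 (limma adjusted p = 0.0214), and Mcts2 rose by 0.90 ± 0.18 (adjusted p = 0.0315, lost in 11 of 17 alternatives). The H13 probe A_51_P336998 beyond Mcts2 fell by 2.22 ± 0.27 (adjusted p = 0.00146). It read -3.18, -2.89, -3.07 and -3.04 in G20 brains, against -0.95, -0.74, -0.87 and -0.75 in NC brains. CC brain replicate 1 read -1.88 at this probe and the other CC brains -0.66 to -0.25, the same animal that was low at the downstream Blcap probes. In G20 livers against NC livers A_51_P336998 fell as well, with -0.91 to -0.53 over the alternative runs (lost in 2 of 17). H13 A_52_P655663, also beyond Mcts2, gave -1.07 to -0.81 in liver (kept in all 16) and -2.14 to -1.67 in brain (lost in 9 of 17). Mcts2 gave 0.55 to 1 in liver (lost in 5 of 17).

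Zrsr1, which lies inside Commd1, rose by 1.02 ± 0.16 in G20 brains (limma adjusted p = 0.00984) and by 0.94 ± 0.16 in G20 livers (adjusted p = 0.00684). Commd1 A_52_P353198 fell by 0.59 ± 0.07 in G20 brains (adjusted p = 0.00179) and A_52_P23616 by 0.63 ± 0.12 (adjusted p = 0.0269, lost in 7 of 16 alternatives). Commd1 is read on the minus strand, so A_52_P23616 (chr11:22882184-22882243) lies before Zrsr1 (chr11:22874611-22874670) and A_52_P353198 (chr11:22856615-22856674) beyond it. Both fell, whereas at Blcap and H13 the probe before the inner gene rose. The remaining Commd1 probe, A_51_P218205, is not described here.

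Among other paternally expressed imprinted genes, 6 of 28 probes rose and 0 fell in G20 brains, where 1.38% of all probes were called, led by Plagl1, a zinc finger gene, at 1.10 ± 0.10 (limma adjusted p = 0.000209). In G20 livers 7 of 19 rose and 3 fell, against 3.88% and 2.62% of all probes, and the 3 were Snurf (-1.44 ± 0.35), Snrpn (-1.41 ± 0.36) and Slc38a4 (-0.75). Of maternally expressed imprinted genes, 2 of 34 probes rose and 4 fell in G20 brains, and 1 of 36 rose and 3 fell in G20 livers. These lists are not separate from the genes described above. The 4 maternal probes that fell in brain belonged to H13 and Commd1, and Mcts2 and Zrsr1 are among the paternal probes that rose.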
